A study of Rattus norvegicus with 33 samples.

Results

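The comparison was between soleus muscles of rats with spinal cord injury (SCI) that had received electrical stimulation (ES) for 3 days and for 1 day. Its members were the 6 arrays of the groups SCI-ES-3Days and SCI-ES-1Day, 3 animals in each with 1 array per animal, of 33 arrays in the series. All 6 animals were female Wistar rats whose spinal cord had been cut through completely. In all of them the tendon of the gastrocnemius had also been cut (gastrocnemius ablation, GA), and a nerve stimulator had been implanted before ES was begun at 16 weeks after the transection. ES was given for 1 h per day through electrodes beside branches of the sciatic nerve, and made the soleus contract together with its antagonist, nearly without movement. The 3-day animals therefore differed from the 1-day animals in the number of sessions and in the time since the first session and since the implantation, and these cannot be told apart. The labels give no ages. The other transection groups of 3 arrays each were SCI (transection, GA and a sham implantation without ES), SCI-ES for 7 days and Sham-SCI (laminectomy with an intact cord and no GA). A second experiment in rats with an intact cord gave GA alone or a sham operation (Sham-GA) at 1, 3 and 7 days, again with 3 arrays each.

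The soleus is a postural muscle made mostly of slow, oxidative fibers, and after SCI it shrinks and takes on faster, more glycolytic properties. Renewed contraction of a paralyzed muscle is known to set off a stress and growth program in the fibers, with transcription factors of the early response, muscle ankyrin repeat proteins, chaperones and the machinery that makes and degrades proteins. Contraction also acts on the capillaries, whose endothelial cells and pericytes respond to blood flow and to growth factors released by the fibers.

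Expression was measured on Affymetrix rat arrays as log2 values, so that a difference of 1 is a 2 fold difference. Of 14456 genes tested with limma over the 15 arrays of the transection experiment, 0 (0%) were called between 3 days and 1 day of ES at an adjusted p under 0.05 and a size of at least 1.5 fold. The lowest adjusted p was 0.206. At an unadjusted p under 0.05 there were 1899 genes, of which 627 (4.34% of all tested) were higher and 1272 (8.8%) were lower at 3 days. The 3 arrays of one group did not overlap with the 3 of the other for 960 genes higher at 3 days (6.64%) and 1442 lower (9.98%), and of these 151 (1.04%) and 225 (1.56%) also differed by at least 1.5 fold. The median difference of all genes was 0.0015. Because no gene passed the test, the values that follow describe these 6 muscles, and a difference that missed the threshold is not shown to be absent.

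The 1-day arrays were unlike one another. Across genes, SCI-ES-1Day replicates 1 and 2 correlated at 0.973, which was the lowest value within the group for both, and replicate 3 correlated with them at 0.9825 and 0.988. Replicate 1 was least like the 3-day arrays (0.966 to 0.972), and replicate 2 correlated at 0.992 and 0.993 with 3-day replicates 1 and 3. When replicate 2 was left out, 303 genes passed the test, 114 higher (0.789%) and 189 lower (1.31%), with the spread of the remaining 1-day arrays assumed to be like that of the other groups. When any other of the 6 arrays was left out in its place, 0 genes passed. Over the 303 genes replicate 2 lay, at the median, 79% of the way from the other 1-day arrays to the 3-day mean. Leaving it out therefore widens the difference, and the calls made without it are no separate support for a gene. The labels give no reason to leave out either replicate, and values without single arrays are given beside results that they move. Markers of muscle fibers were present at high levels in all 6 arrays, with a mean over the 9 genes of 12.79 to 13.53.

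Of all genes tested, Ankrd1 had the largest difference toward lower levels at 3 days. This titin-binding protein, which accumulates in stressed and stretched muscle, read 12.94, 10.34 and 12.51 in the 1-day arrays and 7.75, 7.36 and 10.11 in the 3-day arrays. Its log2 difference was -3.52 with an SE of 0.89, or 11.5 fold. The adjusted p was 0.206 with all arrays and 0.0345 without 1-day replicate 2. The groups did not overlap, and the highest 3-day array lay close below the lowest 1-day array. Tnfrsf12a, the receptor of the cytokine TWEAK, had the smallest p of the lower genes, with 10.05, 8.94 and 9.95 at 1 day and 7.68, 7.87 and 8.18 at 3 days. The difference was -1.74 (SE 0.29) and passed the test without 1-day replicate 2 (adjusted p = 0.00423). All 3 values at 1 day were above all 3 at 3 days by a clear margin.

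Several of the other genes in this group act in growth arrest and myogenic control. Atf3, a stress-induced transcription factor, read 8.78, 9.95 and 10.34 at 1 day against 7.95, 8.23 and 7.55 at 3 days, a difference of -1.78 (SE 0.38). It was an exception in that 1-day replicate 2 lay between the other 1-day arrays. Gadd45a, a growth arrest and DNA damage gene that also takes part in denervation atrophy, read 11.99, 9.09 and 10.40 against 8.32, 8.13 and 9.08, and the cell cycle inhibitor Cdkn1a read 12.52, 9.89 and 11.28 against 8.21, 8.35 and 10.10. The difference was -1.98 (SE 0.62) for Gadd45a, and -2.34 (SE 0.82) for Cdkn1a, whose groups overlapped. The myogenic transcription factor Myod1 differed by -1.98 (SE 0.58), and the growth inhibitor Mstn (myostatin) by -1.85 (SE 0.61). Gadd45a was at -1.23 without 1-day replicate 1. Myod1 and Gadd45a passed the test without 1-day replicate 2 (adjusted p = 0.0484 and 0.0345), whereas Mstn (adjusted p = 0.0578) and Cdkn1a (adjusted p = 0.0827) did not.

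The remaining genes among the 12 largest differences toward lower levels were Myh4 at -2.90, Slc51a at -2.61, Rnase17 at -2.45, Chrne at -2.39, Faah at -1.99 and Tmem38b at -1.61. Myh4 encodes the fastest (type IIb) myosin heavy chain and read 13.10, 10.65 and 13.04 at 1 day and 8.83, 9.04 and 10.22 at 3 days. Rnase17, a member of the ribonuclease A family, was near its level in the SCI group (3.76) at 3 days, with 3.76, 3.47 and 3.45, and read 7.32, 4.31 and 6.39 at 1 day. Without 1-day replicate 2 it had the smallest adjusted p of these genes (0.00017). Slc51a (a subunit of an organic solute transporter), Faah (which degrades fatty acid amides) and Tmem38b (a cation channel of the sarcoplasmic reticulum) also passed without that array, and Myh4 did not (adjusted p = 0.0524). Slc51a was far higher in replicate 1 than in the other 1-day arrays (11.00, 7.52 and 7.72). Without 1-day replicate 1 the differences of Slc51a, Faah and Tmem38b were -1.48, -1.25 and -1.23. In 11 of the 12 genes replicate 1 was the highest 1-day array and replicate 2 the lowest. These 12 genes, like the 12 higher genes below, were chosen among genes whose groups did not overlap (132 lower and 92 higher candidates at an unadjusted p under 0.01), so that the separation is not a result.

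**Figure D1:**
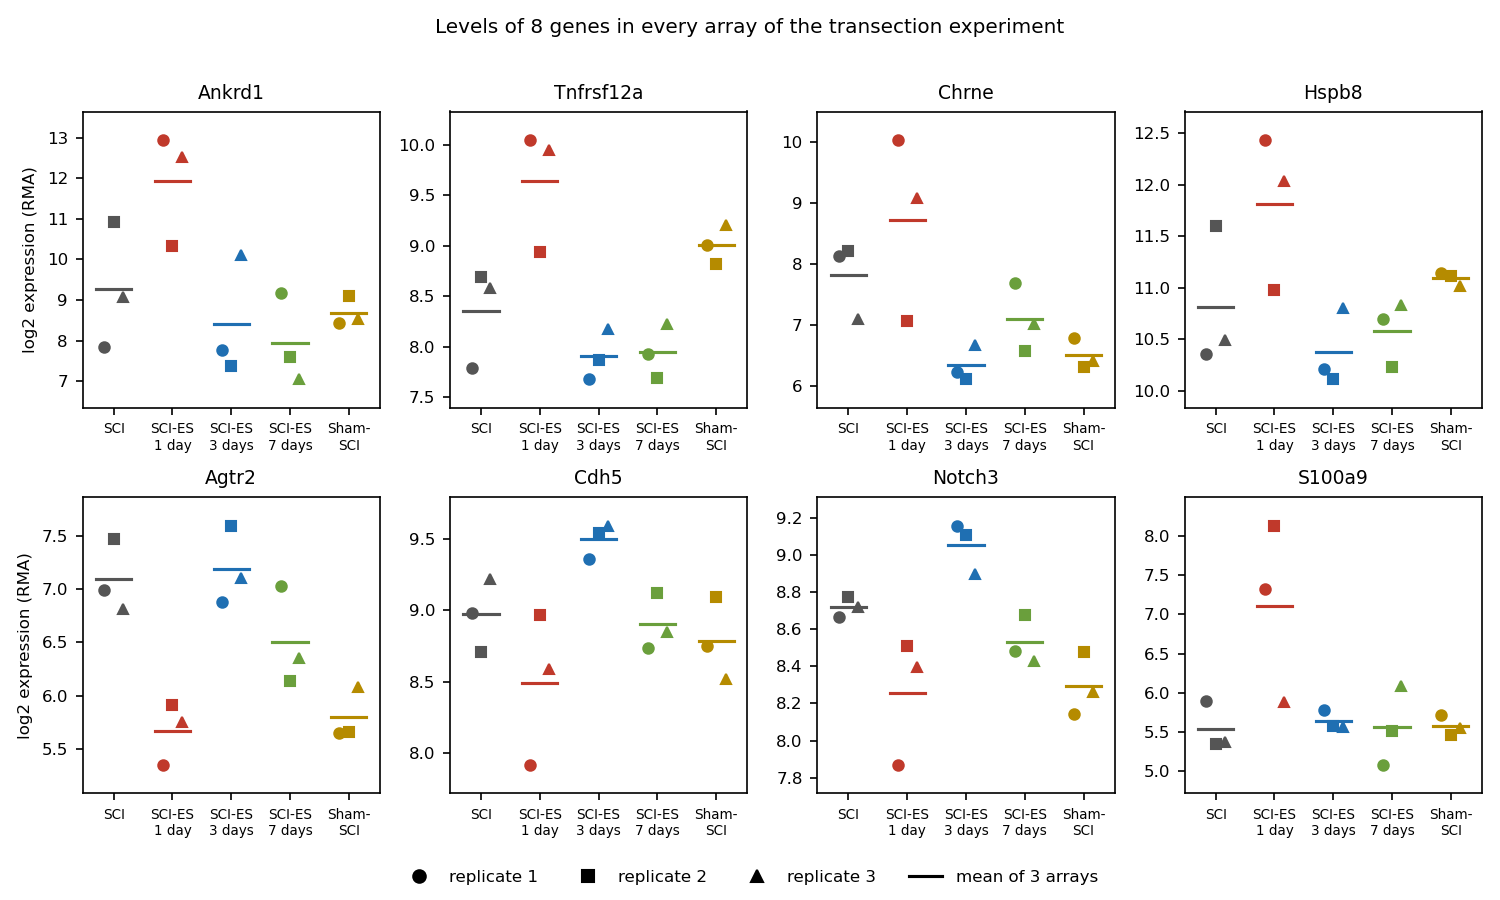
Log2 expression of 8 genes in every array of the transection experiment, by group on the x axis, with a marker for each replicate and a line for the mean of 3 arrays. Ankrd1, Tnfrsf12a, Chrne and Hspb8 were high in 1-day replicates 1 and 3 and lower at 3 days, whereas Agtr2, Cdh5 and Notch3 had their lowest mean in the 1-day group, and S100a9 was highest in 1-day replicates 1 and 2.

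Genes of the neuromuscular endplate were mostly lower at 3 days. Of 17 tested, 12 were below 0, with a median of -0.65 beside 0.0015 over all genes. The groups did not overlap for 4 lower members (9.98% of all genes did so in this direction) and for 2 higher ones (6.64% of all genes). Chrne, the subunit of the acetylcholine receptor that marks the adult endplate, read 10.04, 7.08 and 9.08 at 1 day and 6.24, 6.11 and 6.68 at 3 days (difference -2.39, SE 0.56). It was the only member called without 1-day replicate 2 (adjusted p = 0.00423), beside 1.31% of all genes called as lower. The delta subunit Chrnd and the adhesion molecule Ncam1, both raised by denervation, differed by -1.82 (SE 0.69) and -1.69 (SE 0.60), and their groups overlapped. Agrn, which encodes the agrin that clusters the receptors, was 0.54 (SE 0.18) higher. Of 25 genes of atrophy and denervation 21 were below 0 with a median of -0.46, which was -0.27 without 1-day replicate 1. Among them was Trim54, a sarcomere-associated ubiquitin ligase, at -0.62 (SE 0.17). Without 1-day replicate 2 Gadd45a (lower) and Pdk4 (higher) passed, beside 1.31% and 0.789% of all genes in these directions.

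The promoters of endplate genes often hold the muscle E-box, CAGCTG, which myogenic factors such as Myod1 bind. It was found in 6 of the 12 endplate genes with a promoter in the RefSeq table (250 bases before to 50 after the start), or 50%, and in 15.1% of all 27457 promoters. Of the 12 genes above 8 had a promoter in the table, and 4 of them held it, namely Chrne, Gadd45a, Myh4 and Faah. Chrne is shown as the endplate gene with the largest difference, and Gadd45a as the gene of growth arrest and denervation described above. Capitals mark each match to a searched motif. The Chrne promoter lies on the minus strand at chr10:55834105-55834404 and that of Gadd45a on the minus strand at chr4:97486750-97487049 (GRCr8).
Chrne: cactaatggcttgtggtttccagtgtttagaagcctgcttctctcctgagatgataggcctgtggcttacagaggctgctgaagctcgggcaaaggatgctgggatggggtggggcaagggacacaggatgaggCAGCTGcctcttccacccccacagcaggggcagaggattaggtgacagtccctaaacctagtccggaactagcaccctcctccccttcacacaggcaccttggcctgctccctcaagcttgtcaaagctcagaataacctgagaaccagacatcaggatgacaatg
Gadd45a: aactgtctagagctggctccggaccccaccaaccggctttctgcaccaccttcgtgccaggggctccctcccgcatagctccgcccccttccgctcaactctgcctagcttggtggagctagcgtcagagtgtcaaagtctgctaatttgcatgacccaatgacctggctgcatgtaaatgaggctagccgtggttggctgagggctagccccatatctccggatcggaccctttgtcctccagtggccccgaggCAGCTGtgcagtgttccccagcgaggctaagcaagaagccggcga
A match describes the letters in the window and does not show that a factor is bound.

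Chaperones of the cytosol were lower at 3 days in 29 of 33 genes, with a median of -0.31, and the groups did not overlap for 8 of the lower genes (9.98% of all genes). The median was -0.19 without 1-day replicate 1. Hspb8, a small heat shock protein that works with Bag3 to clear damaged proteins of the sarcomere, read 12.43, 10.98 and 12.03 at 1 day and 10.21, 10.11 and 10.80 at 3 days (difference -1.44, SE 0.36). It passed the test without 1-day replicate 2 (adjusted p = 0.0188). Bag3 itself differed less, with 10.75, 10.59 and 10.63 against 10.32, 9.75 and 10.36 (-0.51, SE 0.15). St13, a cochaperone of the Hsp70 proteins, was at -0.62 (SE 0.20) and was the other member called without 1-day replicate 2 (adjusted p = 0.0315). In that fit 1.31% of all genes passed as lower. The small heat shock protein Hspb1 read 11.65, 11.82 and 11.93 against 11.16, 10.95 and 11.37 (-0.64, SE 0.22). Its 1-day arrays lay close together, with replicate 2 between the others.

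The heat shock element GAANNTTC, in which N is any base, was found in 13 of the 28 chaperone genes with a promoter in the table (46.4%), in 8.34% of all promoters, and in 2 of 26 proteasome genes (7.69%). The promoters of Hspb8, Hspb1 and Bag3 are shown because these genes are the members described above that hold it. They lie at chr12:45837058-45837357 (plus strand), chr12:26432252-26432551 (minus strand) and chr1:192533210-192533509 (plus strand).
Hspb8: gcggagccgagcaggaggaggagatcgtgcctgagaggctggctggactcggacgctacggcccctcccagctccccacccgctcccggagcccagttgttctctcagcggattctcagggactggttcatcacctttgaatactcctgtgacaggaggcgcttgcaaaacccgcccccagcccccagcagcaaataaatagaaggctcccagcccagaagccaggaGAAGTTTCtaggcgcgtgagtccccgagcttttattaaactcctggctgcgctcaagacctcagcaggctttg
Hspb1: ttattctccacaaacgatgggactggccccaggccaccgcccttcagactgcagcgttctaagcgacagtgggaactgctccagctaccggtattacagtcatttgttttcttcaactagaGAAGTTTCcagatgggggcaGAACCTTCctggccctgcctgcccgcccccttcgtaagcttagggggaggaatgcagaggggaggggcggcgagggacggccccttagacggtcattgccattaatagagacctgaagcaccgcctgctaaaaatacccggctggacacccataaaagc
Bag3: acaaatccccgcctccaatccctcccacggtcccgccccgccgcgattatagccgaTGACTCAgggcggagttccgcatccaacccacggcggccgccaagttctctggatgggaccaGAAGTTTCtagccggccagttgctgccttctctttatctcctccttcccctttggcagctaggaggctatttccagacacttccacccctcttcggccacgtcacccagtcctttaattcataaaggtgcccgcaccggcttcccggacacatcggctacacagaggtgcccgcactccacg
All motifs were searched on both strands, and the others were the clock factor E-box CACGTG, the AP-1 site TGANTCA (the additional match in Bag3), the cyclic AMP element TGACGTCA and the D-box motif TTATGNAA.

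All 30 subunits of the proteasome, the protease that degrades ubiquitin-tagged proteins, had a lower mean at 3 days, and for 24 of them the groups did not overlap (9.98% of all genes did so in this direction). The differences were small, with a median of -0.41 and a range from -0.73 (Psmd11) to -0.13 (Psmb6, a catalytic subunit). Psmd14, the deubiquitinating subunit of the lid, read 10.89, 10.24 and 10.51 at 1 day and 9.86, 9.87 and 10.16 at 3 days (-0.58, SE 0.15). It passed the test without 1-day replicate 2 (adjusted p = 0.0293), as did Psmd11 (adjusted p = 0.0491) and Psma2 (adjusted p = 0.049), the latter named after its values were seen. The share of all genes that passed as lower without that array was 1.31%. Psmd4, the ubiquitin receptor, and Psma6, of the outer ring, differed by -0.49 (SE 0.13) and -0.37 (SE 0.10) and did not pass. For Psma6 the 1-day values were 10.23, 10.26 and 10.12, so that replicate 2 lay with its group. All were measured in the same 6 muscles, so that 30 is not a number of independent observations.

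Genes of ribosome biogenesis, which make and process ribosomal RNA, showed the same direction in 22 of 22 with a median of -0.30. In 12 the groups did not overlap (9.98% of all genes did so in this direction). Wdr12, of a complex that matures the large subunit, read 9.39, 9.04 and 9.23 against 8.78, 8.55 and 8.60 (-0.58, SE 0.13). Polr1a, the largest subunit of RNA polymerase I, differed by -0.63 (SE 0.17), and the processing factors Heatr1 and Wdr43 by -0.59 (SE 0.16) and -0.43 (SE 0.12). Wdr12 and Heatr1 passed without 1-day replicate 2 (adjusted p = 0.0385 and 0.041), as did Gnl3 (0.0165) and Ddx21 (0.0315), which were named after their values were seen. Beside these, 1.31% of all genes passed as lower without that array. The 31 genes of the ribosomal proteins themselves had a median of 0.039 (from -0.032 to 0.11 without single arrays), with 19 above 0 and 12 below. In the synthesis of methionine and polyamines 13 of 16 genes were lower (median -0.25), 7 of them without overlap (9.98% of all genes). Among them were spermine synthase, Sms, at -0.71 (SE 0.24), and Adi1, of the methionine salvage pathway, at -0.58 (SE 0.19).

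**Figure D2:**
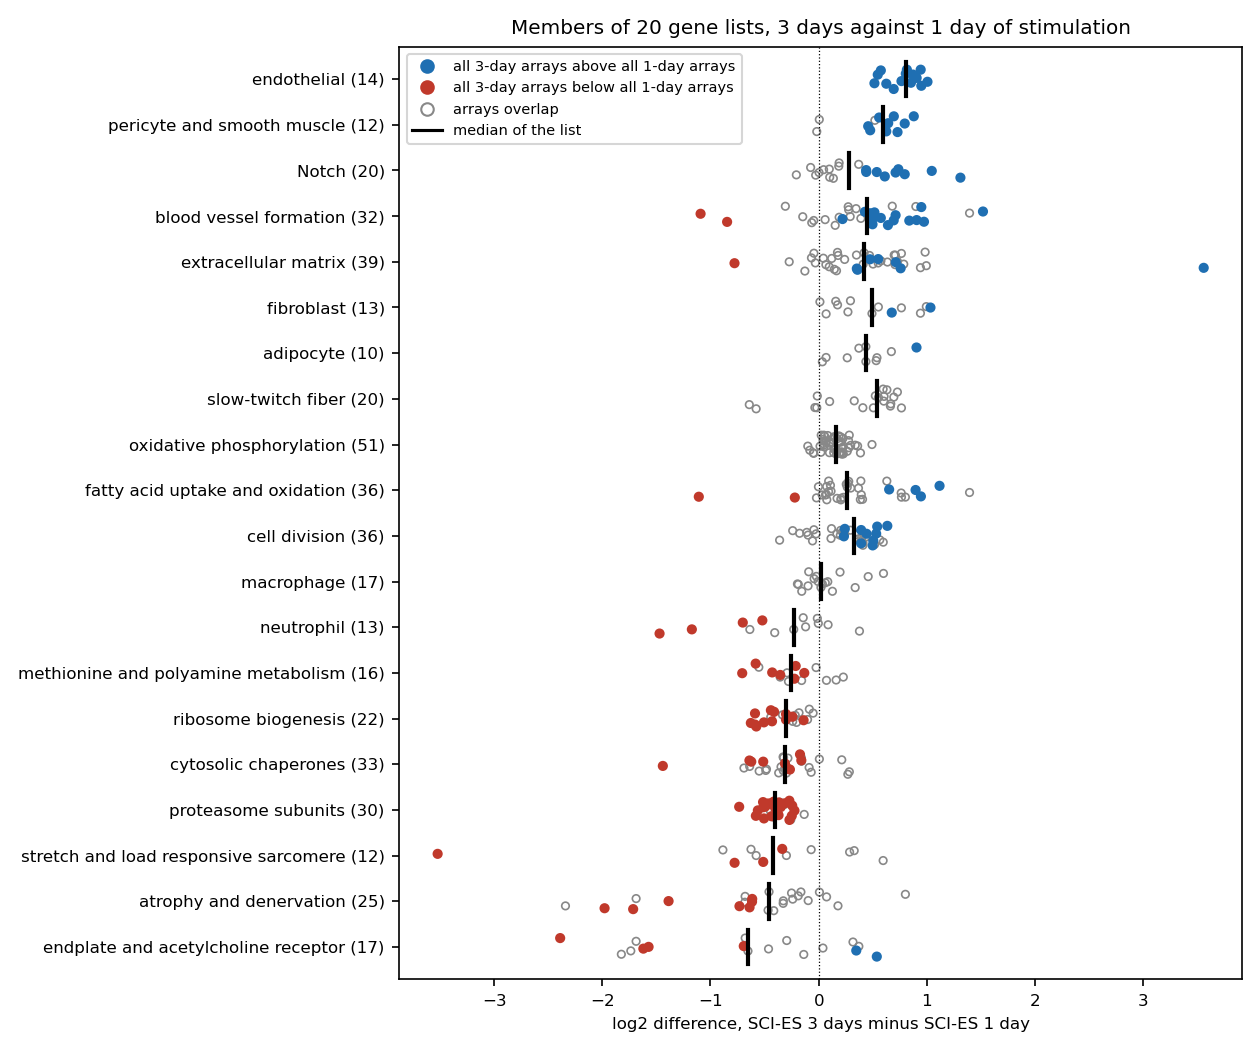
Log2 difference of each member of 20 gene lists between 3 days and 1 day of ES (x axis), with the number of genes tested in parentheses. Filled points mark genes whose 3 arrays per group did not overlap, open points those that overlapped, and the vertical line the median of the list, which was 0.81 for the endothelial and -0.41 for the proteasome list.

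Among the genes with higher levels at 3 days, those of the vessel wall were prominent. Of 14 endothelial markers all 14 were higher, and in all 14 the 3-day arrays lay above the 1-day arrays (6.64% of all genes did so). The median difference was 0.81, with a range from 0.52 (Cldn5, of endothelial tight junctions) to 1.01 (Cdh5). None passed with all arrays, and without 1-day replicate 2 Cdh5, Sox18, Erg and Tie1 did, as did Pecam1, Emcn and Egfl7, which were named after their values were seen. The share of all genes that passed as higher without that array was 0.789%. Cdh5, the cadherin of endothelial junctions, read 7.92, 8.97 and 8.59 at 1 day and 9.36, 9.54 and 9.59 at 3 days (SE 0.23; adjusted p = 0.206 with all arrays and 0.0195 without that array). The endothelial transcription factors Sox18 and Erg differed by 0.81 (SE 0.18) and 0.80 (SE 0.19), and the receptor Tie1 by 0.95 (SE 0.22). In 13 of the 14 genes replicate 1 was the lowest 1-day array, and in all 14 replicate 2 was the highest. Without replicate 1 the median was 0.61, and without any other of the 6 arrays it lay between 0.74 and 0.98. In whole muscle, more cells of a type and more RNA per cell cannot be told apart.

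Markers of pericytes and smooth muscle were higher in 11 of 12 genes, with a median of 0.59 and 9 genes without overlap (6.64% of all genes). Notch3, a receptor of mural cells, read 7.87, 8.51 and 8.39 at 1 day and 9.16, 9.11 and 8.89 at 3 days (0.80, SE 0.15) and passed without 1-day replicate 2 (adjusted p = 0.0165). The smooth muscle myosin Myh11 was at 0.88 (SE 0.20), the pericyte potassium channel Kcnj8 at 0.69 (SE 0.18) and the smooth muscle protein Cnn1 at 0.48 (SE 0.13). Myh11 read 6.98, 7.39 and 7.52 against 7.96, 8.45 and 8.11, with no 1-day array near the 3-day range. Kcnj8 passed without 1-day replicate 2 (adjusted p = 0.0383), as did Rgs5 (0.0383) and Cspg4 (0.0468), both named after their values were seen. Beside these, 0.789% of all genes passed as higher without that array.

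Genes of the Notch pathway, which controls the sprouting and maturation of vessels, were higher in 17 of 20 (median 0.28). For 9 of them the groups did not overlap (6.64% of all genes did so in this direction). Notch4, an endothelial receptor, read 6.91, 7.23 and 7.15 against 7.54, 7.51 and 7.56 (0.44, SE 0.11). The feedback inhibitor Nrarp differed by 0.74 (SE 0.20) and the target Hey2 by 1.04 (SE 0.30), whereas the target Hes1 was the lowest member at -0.21. Hey2 read 5.78, 6.96 and 5.60 at 1 day, so that replicate 2 lay next to the 3-day arrays at 7.39, 7.00 and 7.08, and it passed when that array was left out (adjusted p = 0.0124). Notch3 is also a pericyte marker, and the Notch list shared no gene with the endothelial list.

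In a list of blood vessel formation 26 of 32 genes were higher (median 0.45, or 0.26 without 1-day replicate 1). Without overlap 15 were higher and 2 lower, beside 6.64% and 9.98% of all genes. The list shared 4 genes with the endothelial markers. Agtr2, the type 2 receptor of angiotensin II, had the largest difference of the named higher genes and the smallest p, with 5.35, 5.91 and 5.75 at 1 day and 6.88, 7.59 and 7.10 at 3 days. The difference was 1.52 (SE 0.26), or 2.86 fold, and it passed without 1-day replicate 2 (adjusted p = 0.0184). The 1-day arrays were close to one another and clearly below the lowest 3-day array. Aplnr, the apelin receptor of endothelial cells, was 0.97 (SE 0.24) higher and passed without 1-day replicate 2 (adjusted p = 0.0401). Egln3, a hydroxylase that marks hypoxia-inducible factors for degradation, ran the other way, with 11.70, 10.32 and 11.06 at 1 day against 9.88, 9.69 and 10.24 (-1.09, SE 0.28; adjusted p = 0.0163 without 1-day replicate 2).

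Of the other named genes that were higher at 3 days, 2 act at the capillary. Gpihbp1, which holds lipoprotein lipase on the capillary wall, read 7.35, 8.54 and 8.06 against 8.64, 9.43 and 9.23 (1.12, SE 0.31), and Adgrl4, an adhesion receptor of endothelial cells, differed by 1.08 (SE 0.25). Both passed without 1-day replicate 2 (adjusted p = 0.0434 and 0.0325). Dlk1, a noncanonical Notch ligand, read 6.93, 7.41 and 7.58 against 7.80, 9.50 and 8.56 (1.31, SE 0.38). Inmt, a methyltransferase, read 5.53, 6.08 and 5.82 against 7.73, 6.81 and 6.75 (1.29, SE 0.27). The differences were 1.29 for Akr1c14 (a hydroxysteroid dehydrogenase), 1.17 for Slc24a2 (a sodium-calcium exchanger), 1.08 for Grm4 (a glutamate receptor), 1.05 for Vtn (vitronectin), 1.04 for Or51e1 (an odorant receptor) and 1.01 for Pcdh1 (a protocadherin). Without 1-day replicate 2, 7 of the 12 named higher genes passed the test (Agtr2, Hey2, Adgrl4, Inmt, Vtn, Gpihbp1 and Akr1c14), and 9 of the 12 named lower genes. None passed when any other single array was left out. Among all genes, 0.789% passed as higher and 1.31% as lower without 1-day replicate 2. The named genes were chosen for a large difference in these same arrays, so the counts of 7 and 9 are not a separate result.

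Relative to the SCI group, the 1-day and 3-day means lay on opposite sides for some lists and on the same side for others. All 14 endothelial genes were below their SCI mean at 1 day (median -0.36) and above it at 3 days (median 0.475), and at 7 days all 14 lay between the means at 1 and 3 days (median -0.0071 from SCI). The proteasome subunits were above SCI at 1 day in 30 of 30 (median 0.23) and below it at 3 days in 29 of 30 (median -0.19). For ribosome biogenesis, 21 of 22 were above SCI at 1 day and 18 of 22 were below it at 3 days, with medians of 0.24 and -0.11. The list means of single arrays overlapped in part. Endothelial means were 8.03 to 8.53 in SCI, overlapping with 7.44 to 8.215 at 1 day but not with 8.57 to 8.76 at 3 days. Proteasome means were 10.13 to 10.27 in SCI, overlapping with 9.84 to 10.19 at 3 days and meeting 10.27 to 10.59 at 1 day. Ribosome biogenesis means in SCI (8.1 to 8.19) overlapped with neither group. The 12 named lower genes were all above SCI at 1 day and all below it at 3 days. The 12 named higher genes were all below it at 1 day and all above it at 3 days. The named genes were chosen for a large difference between 1 and 3 days, which favors an SCI mean between those means. Their counts are therefore not a separate result. Unlike the lists above, neutrophil genes were above SCI in 12 of 13 at 1 day and in 11 of 13 at 3 days. Genes of oxidative phosphorylation were above it in 32 of 51 and 49 of 51. For that list the SCI arrays had means of 11.68, 11.1 and 11.61, so that 1 low array pulled down the reference. The differences from SCI share the SCI arrays and were not tested here.

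**Figure D3:**
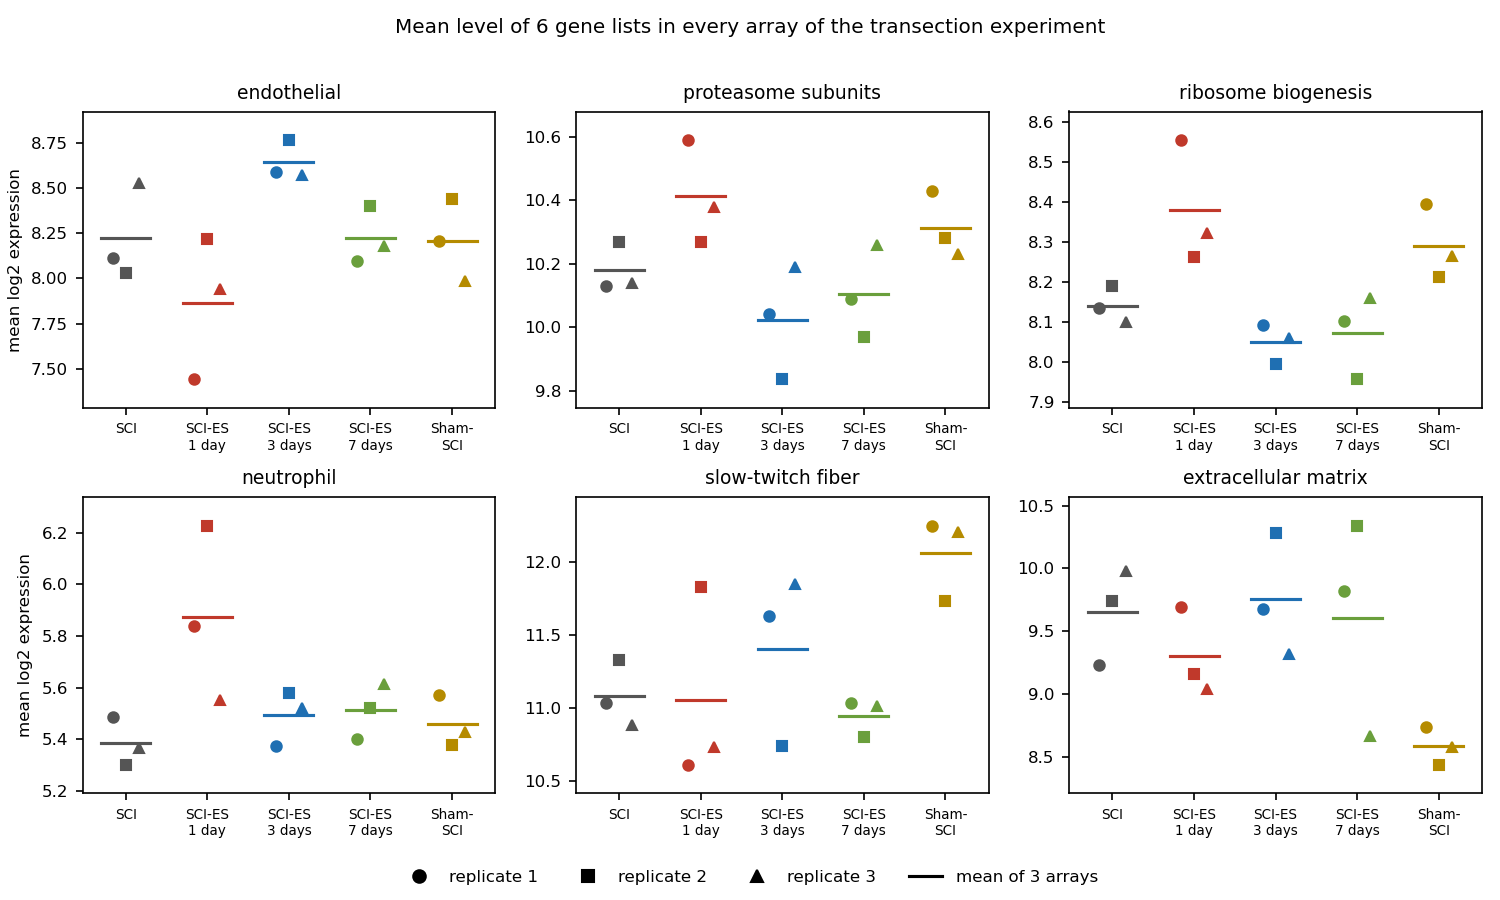
Mean log2 expression over the genes of 6 lists in every array of the transection experiment, by group on the x axis, with a marker for each replicate and a line for the mean of 3 arrays. The 3-day arrays lay above the 1-day arrays for the endothelial list (8.57 to 8.76 against 7.44 to 8.21) and below them for the proteasome and ribosome biogenesis lists, whereas the arrays of the slow-twitch and extracellular matrix lists overlapped.

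Neutrophil genes were mostly higher at 1 day, and most so in 1-day replicate 2. Of 13 markers 11 were lower at 3 days, and for 4 of them, S100a9, Mmp8, S100a8 and, named after its values were seen, Fcnb, the groups did not overlap (9.98% of all genes). The median was -0.23, and it was -0.41, -0.36 and -0.44 without 1-day replicate 1, 3-day replicate 2 and 1-day replicate 3 in turn. S100a9, a subunit of calprotectin, read 7.32, 8.13 and 5.89 at 1 day and 5.79, 5.57 and 5.57 at 3 days (-1.47, SE 0.41), and Mmp8, the neutrophil collagenase, read 6.39, 7.03 and 5.39 against 4.87, 5.15 and 5.27 (-1.17, SE 0.32). The partner S100a8 differed by -0.70 (SE 0.20) and the granule protein Ngp by -0.64 (SE 0.21), whereas Lcn2, which other cells also make, was at 0.38 (SE 0.23). S100a8 and Ngp were dim, with means of 4.26 and 4.92 at 1 day and 3.56 and 4.28 at 3 days. Genes were tested from a mean of 3 upward, so both lay near the limit. Replicate 2 was the highest 1-day array in 9 of the 13, replicate 3 was the lowest in 8, and without replicate 2 none of the 13 passed (adjusted p = 0.182 for S100a9). The SCI mean of S100a9 was 5.54, close to the 3-day arrays.

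Matrix, fibroblast and adipocyte genes were higher at 3 days, but their values depended on 1 muscle. Of 39 matrix genes 33 were above 0 (median 0.42), of 13 fibroblast markers all 13 (median 0.49) and of 10 adipocyte markers all 10 (median 0.44). Without SCI-ES-3Days replicate 2 the medians were 0.18, 0.19 and 0.066. The matrix median was 0.64 without 1-day replicate 1, and the adipocyte median was 0.22 without that array and 0.71 without 3-day replicate 1. SCI-ES-3Days replicate 2 was the highest 3-day array for 35 of the matrix genes and for all the fibroblast and adipocyte markers. Its mean over the 17 macrophage markers was 9.55, against 8.39 and 7.43 in the other 3-day arrays and 8.25 to 8.56 at 1 day. The part of these cells in the results was not tested.

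Mmp12, the macrophage elastase, had the largest positive difference of all listed genes, with 4.66, 5.07 and 5.43 at 1 day and 8.89, 10.80 and 6.14 at 3 days (3.56, SE 1.21; adjusted p = 0.251). The 3-day values spread widely, and replicate 3 lay near the 1-day arrays. Col4a1, of the basement membrane, varied less, with 7.44, 7.91 and 7.66 against 8.23, 8.69 and 8.36 (0.76, SE 0.20), while the fibrillar collagen Col3a1 (0.99, SE 0.53) and the fibroblast marker Thy1 (1.03, SE 0.51) had larger errors. Fabp4, of adipocytes and capillaries, was at 0.90 (SE 0.40). Among 7 tendon markers 3 were above 0 and 4 below. The cartilage and tendon protein Chad was lowest, with 8.77, 9.31 and 9.25 against 7.05, 6.75 and 7.87 (-1.88, SE 0.70). The list median of -0.78 was the value of Fmod (SE 0.86), and the median was -0.51 without 1-day replicate 1. None of these genes passed the test with or without 1-day replicate 2. The erythrocyte markers were lower in all 5 (median -0.27), but the median was 0.030 without 1-day replicate 1, -0.50 without 1-day replicate 3 and -0.14 without 3-day replicate 3. The macrophage median was 0.021, and ran from -0.56 without 3-day replicate 2 to 0.535 without 3-day replicate 3. The lymphocyte, mast cell, Schwann cell and satellite cell lists had medians between -0.0025 and 0.11, whose signs turned without single arrays.

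Slow-twitch genes differed more between muscles of one group than between the groups. Of 20 genes 15 were higher at 3 days (median 0.54), but for none did the groups separate. Myh7, the slow myosin heavy chain, read 11.27, 13.49 and 11.74 at 1 day and 13.34, 11.78 and 13.56 at 3 days (0.73, SE 0.50; adjusted p = 0.585). Thus 1-day replicate 2 and 3-day replicates 1 and 3 had the higher slow-fiber levels, near the Sham-SCI mean of 13.53, and the other 3 arrays the lower ones. For 17 of the 20 genes replicate 2 was the highest 1-day array, and for 19 of the 20 replicate 2 was the lowest 3-day array. The median was 0.99 without 1-day replicate 2 and 0.16 without 1-day replicate 1. It was 0.27 without 1-day replicate 3, and 0.92 and 0.25 without 3-day replicates 2 and 3. Without 1-day replicate 2, 5 of the slow genes passed the test, namely the ventricular and slow light chain Myl3 (0.93, adjusted p = 0.0135), the calcium pump Atp2a2 (1.24, adjusted p = 0.0468), the fatty acid binding protein Fabp3 (adjusted p = 0.0342) and, named after their values were seen, the Z-disc protein Myoz2 (1.16, adjusted p = 0.0456) and the slow troponin Tnni1 (1.28, adjusted p = 0.0499). Of all genes, 0.789% passed as higher without 1-day replicate 2. Sarcolipin, Sln, an inhibitor of the pump Atp2a2, was at -0.64 (SE 0.50) with all arrays.

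Oxidative genes had small differences that turned with a single array. Fatty acid uptake and oxidation was higher in 32 of 36 genes (median 0.26) and oxidative phosphorylation in 47 of 51 (median 0.16). Without 1-day replicate 1, which was the lowest 1-day array for 50 of the 51, the medians were -0.074 and -0.050, and without 1-day replicate 2 they were 0.60 and 0.32. Without 3-day replicate 3 they were 0.16 and 0.091. Angptl4, an inhibitor of lipoprotein lipase induced by fatty acids, read 5.67, 8.21 and 6.22 at 1 day and 8.32, 7.98 and 7.97 at 3 days (1.39, SE 0.49), and without 1-day replicate 2 it passed (adjusted p = 0.0109). Pdk4, which turns fibers from glucose to fat, read 10.17, 12.91 and 11.52 against 12.16, 12.34 and 12.50 (0.80, SE 0.49). Its difference was 0.12 without 1-day replicate 1 and 1.49 without 1-day replicate 2 (adjusted p = 0.0499). Of the 36 fatty acid genes 7 passed as higher without 1-day replicate 2, beside 0.789% of all genes in this direction. They were Angptl4, Fabp3, Gpihbp1, Pdk4 and, named after their values were seen, Cd36, Decr1 and Mlycd. Cpt1a, which admits fatty acids to mitochondria, differed by 0.65 (SE 0.23), and Acsl4, an acyl-CoA synthetase, by -1.11 (SE 0.37). In the fast-twitch list 17 of 20 genes were lower (median -0.12, from -0.22 to -0.066 without single arrays). Myh4 and Prkag3, the fast-fiber subunit of AMP-activated kinase (-1.44, SE 0.50), were among the 4 lower genes without overlap (9.98% of all genes).

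Load-responsive genes of the sarcomere were lower in 9 of 12 (median -0.42, and -0.27 without 3-day replicate 2), and besides Ankrd1 and Bag3 these included Enah, an actin regulator, with 10.07, 10.68 and 10.75 against 9.60, 9.55 and 10.03 (-0.78, SE 0.26). In the early-response list 12 of 23 were higher and 11 lower (median 0.0099, from -0.13 to 0.15 without single arrays), so that Atf3 did not stand for its list. Genes of cell division were higher in 28 of 36 (median 0.32), and for 10 the 3-day arrays lay above the 1-day arrays (6.64% of all genes). Without 3-day replicate 2 the median was 0.17. The lists of circadian, Wnt, insulin-like growth factor, interferon, cytokine, complement and glycolysis genes had medians between -0.10 and 0.094, and between -0.19 and 0.50 without single arrays.

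The change from day 1 to day 3 of ES was set against that after GA in rats with an intact cord, in 1 fit over all 33 arrays. The ES and GA animals differed in cord transection, time since the tendon was cut, form of load and experiment. These cannot be told apart from ES, so a called difference is not shown to be particular to ES. Between 1 and 3 days after GA 602 genes were called (456 higher and 146 lower at 3 days). This is a change over time that was not set against the sham operation. The difference between the ES and GA changes passed the test for 27 genes in the positive direction (0.187%) and 83 in the negative (0.574%). All 83 had a change above 0 after GA, and 77 of them a change below 0 with ES. All 27 had a change below 0 after GA. Choosing genes by their difference favors such signs, so they are not a separate result. The GA change itself was called for 38 of the 83 and 18 of the 27. With the arrays scaled by a second quantile normalization the counts were 32 and 38, and with the arrays centered on their medians 32 and 28. These calls were not stable: without SCI-ES-1Day replicate 1 there were 0, without GA-1Day replicate 3 there was 1, and without SCI-ES-3Days replicate 1 there were 2. Without GA-3Days replicate 1 there were 25, without SCI-ES-3Days replicates 2 and 3 in turn 28 and 42, and without SCI-ES-1Day replicates 3 and 2 in turn 63 and 354. Without any of the other 4 GA arrays the count was 119 to 150. A fit of the 4 groups alone called 0 genes, with 2016 at an unadjusted p under 0.05.

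The largest positive differences included Egr1, an early-response transcription factor, whose means after GA were 11.26 ± 0.64 (SD, n = 3) at 1 day and 9.29 ± 0.12 at 3 days. With ES its means were 9.20 ± 0.32 and 9.62 ± 0.65, giving a difference of 2.40 (SE 0.54). Per1, of the circadian clock, had changes of -1.69 after GA and -0.059 with ES (difference 1.63, SE 0.26, adjusted p = 0.0181). Agtr2 differed by 1.53 (SE 0.36), with a change of -0.0084 after GA. Among the negative differences, Pttg1 and Kif4a, both of mitosis, had changes of 2.73 and 2.26 after GA and of 0.24 and 0.27 with ES. Scx, the transcription factor of tendon cells, had changes of 1.01 after GA and -0.99 with ES. Of the early-response list Egr1, Egr3, Ier5 and Maff were called, as was the proteasome subunit Psmd2, while the medians of the proteasome list were -0.41 with ES and 0.099 after GA. The endothelial list had a median change of 0.13 after GA and 0.062 after the sham operation, and none of its genes was called for the difference. Ribosome biogenesis had a median of -0.34 in both of those time courses, beside -0.30 with ES.

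**Figure D4:**
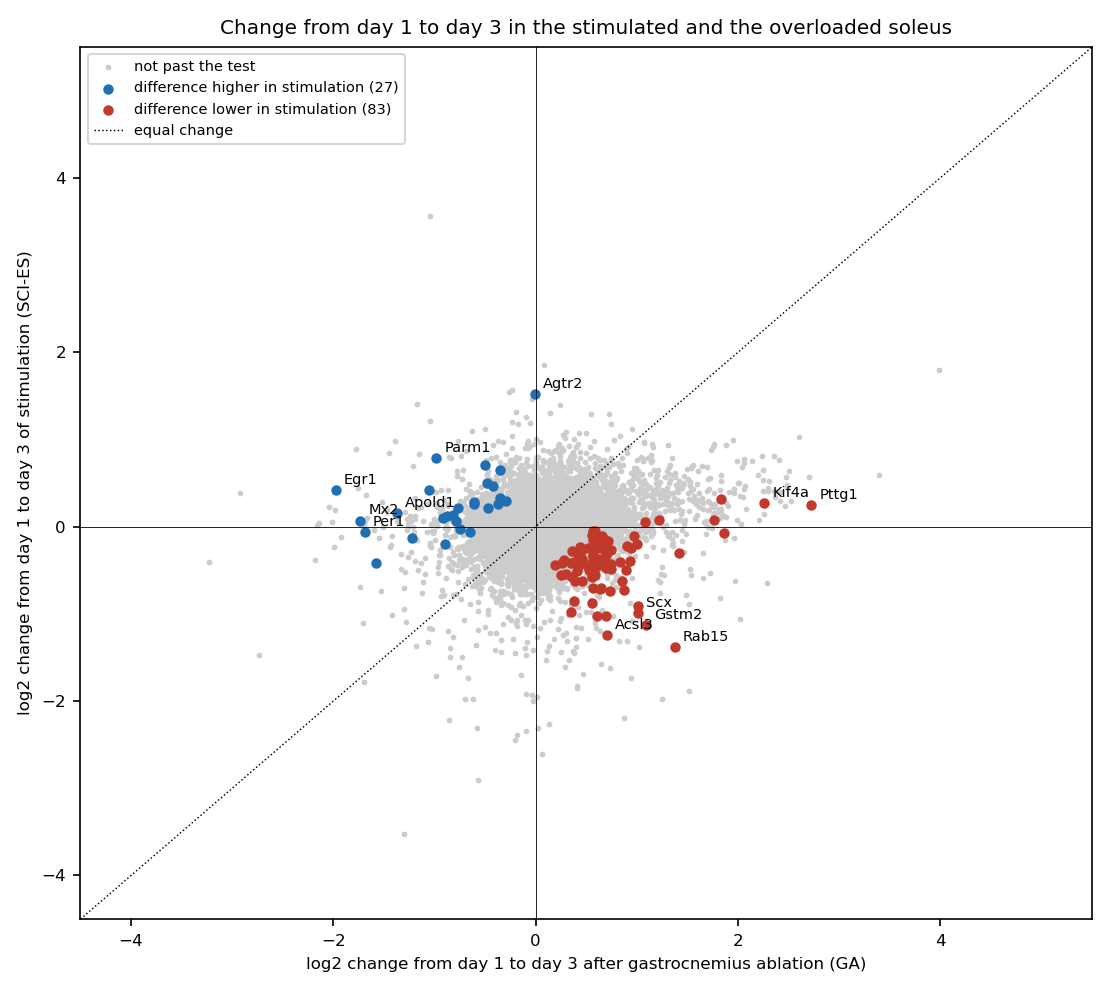
Log2 change from day 1 to day 3 after GA (x axis) and with ES (y axis) for each gene, from 1 fit over 33 arrays, with a dotted line where both are equal. The 27 genes with a higher difference (blue) lay above the line with GA changes below 0, and the 83 with a lower difference (red) lay below it with GA changes above 0.

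Against the sham operation, 1 of 14453 genes (0.00692%) was called for a different change from day 1 to day 3, and 699 had an unadjusted p under 0.05. The sham-operated animals had an intact cord and uncut tendon and came from the other experiment, so these cannot be told apart from ES. The called gene was Parm1, which encodes a membrane mucin. Its means were 7.83 ± 0.35 (SD, n = 3) and 8.61 ± 0.38 with ES at 1 and 3 days, 9.50 ± 0.11 and 8.00 ± 0.43 after the sham operation, and 9.24 ± 0.17 and 8.26 ± 0.76 after GA. The call was lost in 9 of the 12 fits with 1 array left out, with adjusted p values from 0.0179 to 0.322, and in a fit of the 4 groups alone.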

How the data were processed

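RNA from soleus was hybridised to 33 Affymetrix rat arrays in 11 groups of 3 animals, with 1 array per animal. The authors deposited log2 expression values made by RMA with the oligo package (baseline subtraction, quantile normalization and median polish), whose versions are not given in the sources used here, and the background correction could not be redone. Groups and days were taken from the sample labels, since the design text that comes with the values gives other days (1, 2 and 7). Per the labels, RNA integrity numbers were above 8 in all samples. Depth has no counterpart on these arrays, and the number of arrays limits the precision.

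Of 29214 rows, 15310 carried 1 gene symbol (14506 genes), 323 several and 13581 none, and only the first kind was used. Where a gene had several rows (527 genes), its brightest row on average stood for it. Genes with a mean of at least 3 were tested with limma 3.58.1 in R 4.3.3 (lmFit and eBayes), 14456 over the 15 arrays of the transection experiment and 14453 over all 33 for differences between time courses. The p values were adjusted by the Benjamini-Hochberg method across every tested gene, and a gene was called at an adjusted p under 0.05 and at least 1.5 fold. The scripts were tested on simulated data with known changes.

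The members and the 47 gene lists (13 of cell type markers and 34 of pathways) were chosen with earlier results of these data known. Of 1128 list entries 1016 were matched to a tested gene, 30 of them through a current symbol or synonym. Named were up to 12 genes in each direction with the largest size among called genes, filled where too few were called by genes of at least 1.5 fold, an unadjusted p under 0.01 and no overlap. Of each list the lowest and highest member could be named, and up to 4 members by the smallest p where the median was at least 0.2 in size. Of each difference between time courses up to 6 called genes in each direction could be named. Promoter sequences (GRCr8) and symbols came from RefSeq tables. The alternatives were other filters, normalizations, priors, array weights, a fit restricted to the compared groups or widened to 33 arrays, other ways to join rows, the ANOVA-type test of the methods, a block for replicate number, and leaving out single arrays. Same-numbered 1-day and 3-day arrays had correlated deviations of -0.219, -0.224 and 0.0824, so the numbers did not pair the samples. Lists were described by counts and medians only, with Python 3.11.15, pandas, numpy and matplotlib.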

Additional observations from a re-analysis of the deposited data

Results flagged for a closer look

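The change from day 1 to day 3 differed between ES and GA for 12 of the named genes, each tested as an interaction in limma over all 33 arrays with Benjamini-Hochberg adjustment. On the log2 scale the ES change exceeded the GA change by 2.40 for Egr1 (adjusted p = 0.0351), 1.80 for Mx2 (0.0469), 1.77 for Parm1 (0.033), 1.63 for Per1 (0.0181), 1.53 for Agtr2 (0.0422) and 1.53 for Apold1 (0.0497). The difference was -2.75 for Rab15 (0.0467), -2.48 for Pttg1 (0.0351), -2.22 for Gstm2 (0.0467), -2.01 for Scx (0.0363), -1.99 for Kif4a (0.0345) and -1.95 for Acsl3 (0.0498). With 1 array left out in turn, Per1 kept its call in 11 of 12 fits, Parm1 in 6, Egr1 and Pttg1 in 5, Scx and Kif4a in 4, Gstm2, Mx2 and Rab15 in 3, Agtr2 and Acsl3 in 2 and Apold1 in 1. Against the sham operation the difference was 2.28 for Parm1 (adjusted p = 0.0467), which kept its call in 3 of 12. Groups of 3 arrays are too small for a test of single outlying samples.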

How the results depend on the processing

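The comparison of 3 days with 1 day of ES called 0 genes, and 130 with array weights (44 higher), 3 in a fit of all 33 arrays (1 higher) and 242 by the methods' test across groups without adjustment (104 higher), which called 0 after adjustment. With 1 array left out the count ran from 0 to 303, and each call came without SCI-ES-1Day replicate 2. The replicate number as a block gave 0 calls here (1794 genes at an unadjusted p under 0.05), 64 for the ES and GA changes and 0 for ES and sham, and since the numbers did not pair the samples these are no measure of a weaker effect. The 110 calls between the ES and GA changes became 70 with a second quantile normalization, 60 with centered arrays, 0 with the groups of the contrast alone, 2051 with array weights, and 0 to 354 with 1 array left out. The single call against the sham operation became 0 with the groups alone, 64 with array weights, and 0 to 31 with 1 array left out. The cause of these shifts was not tested. The other filters, priors and ways to join rows kept each count within 1.5 times. The 81 genes followed kept their sign in all 1449 recomputed values, and 35 passed the test without SCI-ES-1Day replicate 2. Many of the 81 were chosen for a large difference without overlap, whose sign cannot turn when 1 array is left out. The 13 differences between time courses, chosen among called genes, kept their sign in 297 recomputed values and lost the call in 140. Given this choice of genes, the kept signs are no separate support. With 3 arrays a group, and signal near background for dim genes, small differences could not be resolved.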
